A study of Mus musculus with 4 samples.

Results

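Germ cell and meiotic genes are genes whose products act in the making of sperm and eggs, such as the proteins that pair chromosomes in meiosis or that silence transposons through small RNAs. A list of 36 such genes, many of them known from other work to be controlled by promoter methylation, was followed in RNA of mouse embryonic stem cells (ESCs) with and without the chromatin remodeler SNF2L. The list was drawn up with earlier results of these data known, and members to be reported were selected on their measured counts, as those with 10 or more counts in at least 2 of the 4 libraries. All 36 were found among the 24594 genes of the count table. By the count rule 31 were reported and 5 were not.

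Poly(A) RNA was sequenced from untreated ESCs of a 129S6/SvEvTac line, kept in serum with LIF, in 2 wild-type (WT) and 2 Snf2l knockout libraries. The gene is also called Smarca1 and codes for an ATPase of the ISWI family of nucleosome remodelers. The knockout is a Cas9-edited line in the same background and the labels give no other clone, so that genotype and clone cannot be told apart. The methods describe replicates as independent, but nothing in the labels says that the libraries came from separate cultures, and p-values measure the spread between these libraries.

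Total counts ranged from 13771642 to 15608803 per library. Smarca1 itself was read 620 and 626 times in WT against 37 and 31 times in the knockout, so that the knockout libraries were the low ones. Across the transcriptome 1274 of 13840 genes were called at an adjusted p-value under 0.05, and 137 passed the threshold of the study, which is an adjusted p-value under 0.01 with an absolute log2 fold change over 1. The 754 tested genes of chromosome 8 had a median log2 fold change of −0.51, whereas the median over all tested genes was 0.00. Of these 754 genes, 460 (61.0%) were called, 453 of them lower in the knockout. Dpep3, which is below the count rule, was the only listed germ cell gene on that chromosome.

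In somatic cells and in pluripotent cells germline genes are commonly held down at their promoters. The known layers are methylation of CpG sites by the DNMT enzymes, the Polycomb complex PRC1.6, which is brought to DNA by E2F6 and by MGA with MAX, and methylation of lysine 9 of histone H3. Many such genes are released in germ cells when these marks are erased before meiosis. DNA methylation was not measured in these libraries.

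At the level of RNA the listed genes were not uniformly silent in these ESCs. Levels were compared between genes as CPM, which are counts scaled to library size, per kb of gene length. The 31 reported members had a median of 4.72 CPM per kb in WT, and all tested genes had a median of 5.75. Both sets had passed a count filter, which raises such a median. The 5 listed genes below the count rule had 0.034 (Tdrd6) to 0.416 (Dpep3) CPM per kb in WT and are not in it. Of the 31 members, 13 lay above the median of tested genes, 7 lay below their lower quartile of 1.46 and 2 lay above their upper quartile of 17.2. In 21 members every library held 100 or more counts. For this reason they are called germ cell and meiotic genes here, and not silenced genes.

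**Figure D1:**
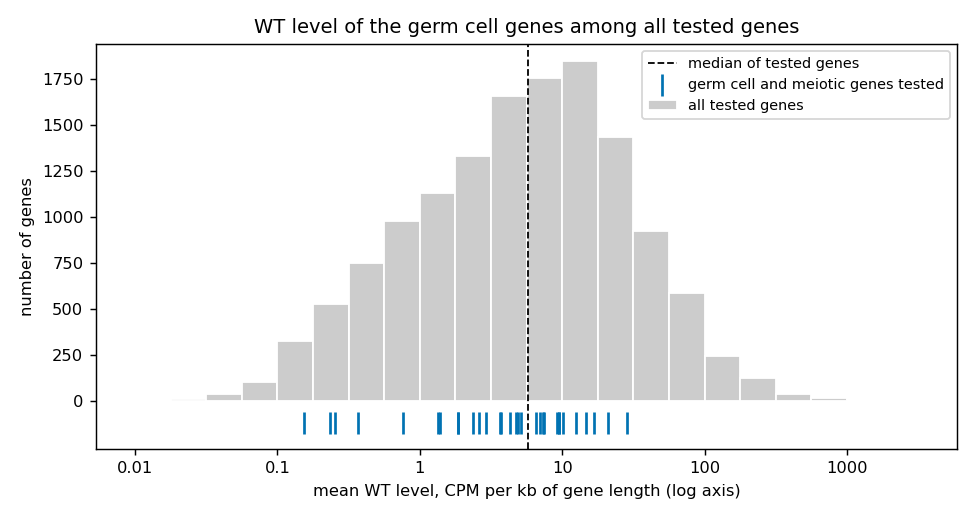
Mean WT level in CPM per kb of gene length (log axis) against the number of genes. Grey bars count all 13840 tested genes, the dashed line marks their median of 5.75, and each blue tick is 1 of the 31 germ cell and meiotic genes tested, which range from 0.153 for Tdrd9 to 28.5 for Syce1.

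The highest level belonged to Syce1, which codes for a protein of the central element of the synaptonemal complex, the structure that zips homologous chromosomes together. It was read 530 and 678 times in WT against 674 and 846 times in the knockout, and its WT level was 28.5 ± 2.57 CPM per kb (SD, n = 2). Tdrd12, a Tudor-domain factor of piRNA production, followed with 20.8 ± 0.530 CPM per kb and with 1253, 1361, 1558 and 1636 counts in WT replicates 1 and 2 and knockout replicates 1 and 2. These were the members above the upper quartile of all tested genes. Next came Ddx4, the germ cell RNA helicase known as VASA, at 16.6 ± 0.685 CPM per kb, with 661 and 789 counts in WT against 780 and 708 in the knockout.

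Piwil2, a PIWI protein that binds piRNAs, had 14.6 ± 1.18 CPM per kb in WT, and Tex14, needed for the bridges that join germ cells, had 12.6 ± 0.506. Hormad1, a protein of the meiotic chromosome axis, had 10.1 ± 0.761 CPM per kb, from 226 and 283 counts in WT against 291 and 274 in the knockout. The ranges of mean ± SD of neighbours did not overlap among these 6, but that of Hormad1 overlapped the range of Sohlh2, which was next at 9.46 ± 0.999. Among these 6 highest genes, Piwil2 and Tex14 differed between the genotypes by edgeR's quasi-likelihood test with Benjamini-Hochberg adjustment, whereas the adjusted p was 0.257 for Tdrd12, 0.288 for Syce1, 0.776 for Ddx4 and 0.860 for Hormad1.

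At the other end were Tdrd9 (0.153 CPM per kb), Brdt (0.235), Piwil1 (0.253) and Sycp2 (0.366). Just inside the count rule were Tdrd9, a piRNA pathway helicase with 11 and 13 counts in WT against 20 and 5 in the knockout, and Piwil1, another PIWI protein, with 14 and 18 in WT against 18 and 13 in the knockout. Just outside it were Dpep3, a testis dipeptidase with 13 and 7 counts in WT against 9 and 5 in the knockout, and Asz1, a germ granule protein with 5 and 6 in WT against 5 and 1. The other genes below the rule were the oocyte transcription factors Figla, with 2 to 5 counts per library, and Nobox, with 0 to 2, and the germ granule gene Tdrd6, with 3 to 5. Of the 31 reported genes, 30 had 10 or more counts in every library, so that they passed the rule in either genotype taken alone. Tdrd9 met it in the WT libraries and in 1 knockout library, and is described without a p-value.

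A minority of these genes differed in the knockout, and in both directions. Of the 31 tested, 7 had an adjusted p-value under 0.05 (edgeR's quasi-likelihood test with Benjamini-Hochberg adjustment over all genes tested), which is 22.6% against 9.21% of all tested genes. Mael, Stra8, Sycp2 and Slc25a31 were higher in the knockout, where 4.0% of all tested genes were called higher. Usp26, Tex14 and Piwil2 were lower, where 5.21% of all tested genes were called lower. Chromosome 8 holds none of the 31, but it holds 460 of the 1274 genes called and 453 of the 721 called lower. Usp26, Mael and Stra8 also passed the threshold of the study, which 0.990% of all tested genes passed. Without Usp26, 6 of 30 were called. The count of 7 became 11 without knockout replicate 1, where 13.7% of all tested genes were called, and 5 by DESeq2, where 5.61% were. As RNA was taken from bulk cultures, a change in the number of cells that express a gene cannot be told apart from a change of RNA per cell.

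Leaving Tdrd9 aside, the 23 uncalled genes had log2 fold changes between −0.51 and 0.91 and adjusted p-values from 0.0538 to 0.932 by edgeR. The median log2 fold change of the 31 was 0.05, with 18 positive and 13 negative values, beside 0.00 for all tested genes. Their median absolute log2 fold change was 0.21, beside 0.15 for all tested genes. Libraries of the genotypes did not overlap in CPM for 17 of the 31 (54.8%), 10 higher and 7 lower in the knockout, and 50.5% of all tested genes did not overlap. The summed level of all 36 listed genes was 681 and 698 CPM in the WT libraries and 681 and 685 CPM in the knockout libraries.

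**Figure D2:**
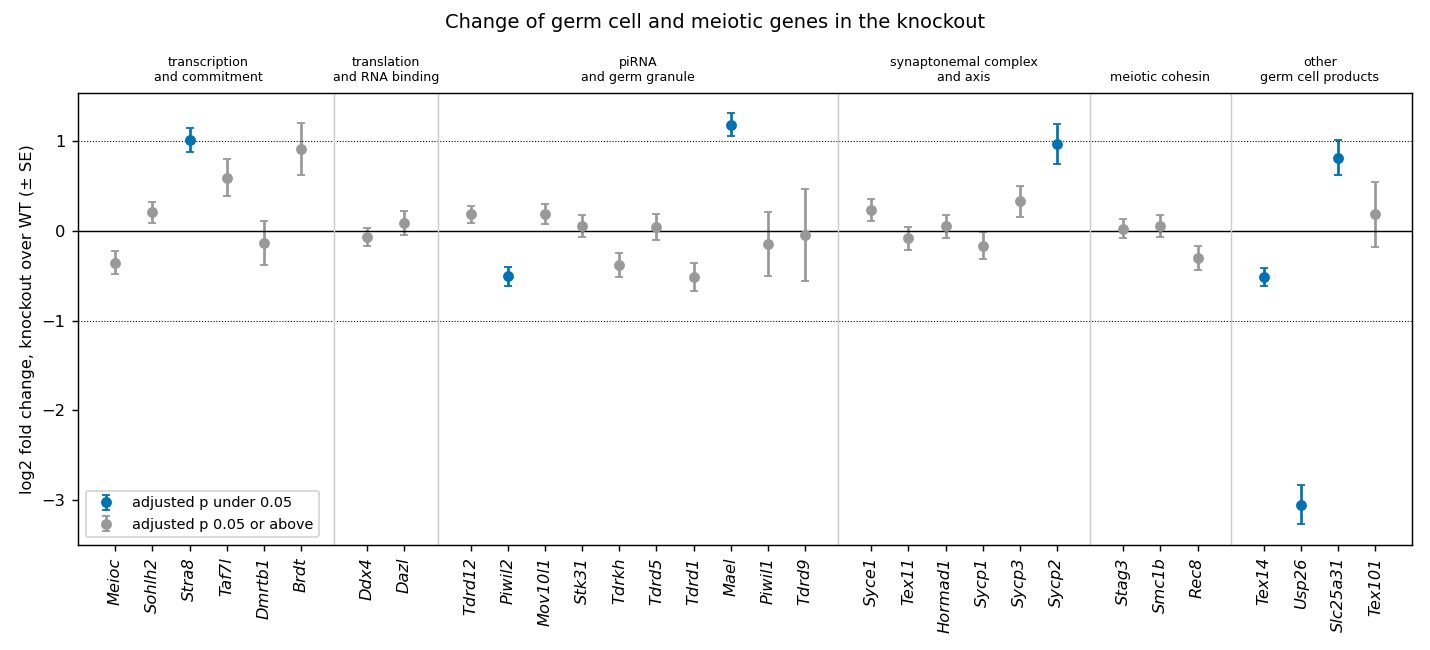
Log2 fold change of knockout over WT with its SE (bars) for the 31 germ cell and meiotic genes tested, grouped by role, with blue points for an adjusted p under 0.05 and dotted lines at −1 and 1. The 7 blue points are spread over 4 of the 6 roles, with Usp26 at −3.05 and Mael at 1.19 as the extremes.

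The stretch before a transcription start of the 4 genes with the smallest p-values is printed here. CpG sites and the motifs of PRC1.6 lie in such stretches. Each line gives the 250 bases before the transcription start used by RefSeq (GRCm38.p6), 5′ to 3′ on the strand of the gene, with each CpG in capitals. Usp26 (chrX:51801234-51801483, minus strand) and Stra8 (chr6:34920698-34920947, plus strand) hold 5 CpG sites each. Mael (chr1:166238745-166238994, minus strand) holds 18 and Tex14 (chr11:87404815-87405064, plus strand) holds 17. The stretch of Stra8 lies wholly inside the gene as listed, which starts at 34920163. That of Tex14 runs past the listed start of the gene at 87405013.
Usp26: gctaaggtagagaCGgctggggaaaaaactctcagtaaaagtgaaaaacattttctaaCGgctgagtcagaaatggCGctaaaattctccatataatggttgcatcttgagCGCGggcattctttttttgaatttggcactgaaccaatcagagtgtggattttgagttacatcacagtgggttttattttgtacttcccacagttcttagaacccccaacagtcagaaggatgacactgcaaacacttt
Mael: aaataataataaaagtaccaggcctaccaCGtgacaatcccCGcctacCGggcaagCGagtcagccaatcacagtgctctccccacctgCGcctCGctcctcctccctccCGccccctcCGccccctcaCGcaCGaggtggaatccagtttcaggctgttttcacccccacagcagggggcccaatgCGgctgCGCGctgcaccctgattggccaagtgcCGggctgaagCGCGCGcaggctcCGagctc
Stra8: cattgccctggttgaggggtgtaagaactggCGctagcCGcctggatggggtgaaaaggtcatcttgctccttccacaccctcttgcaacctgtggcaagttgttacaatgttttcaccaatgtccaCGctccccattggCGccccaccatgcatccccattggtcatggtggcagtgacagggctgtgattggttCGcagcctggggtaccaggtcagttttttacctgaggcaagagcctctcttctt
Tex14: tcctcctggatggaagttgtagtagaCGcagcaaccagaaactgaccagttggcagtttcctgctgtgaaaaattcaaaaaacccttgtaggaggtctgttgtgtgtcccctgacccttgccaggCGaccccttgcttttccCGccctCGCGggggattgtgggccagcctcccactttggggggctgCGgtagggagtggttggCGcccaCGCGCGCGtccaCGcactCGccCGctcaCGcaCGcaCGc

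Usp26 had the largest change of the list. It codes for a deubiquitinating enzyme of the testis and lies on chromosome X (chrX:51752667-51801233). Its counts were 174 and 174 in WT against 28 and 17 in the knockout, so that both knockout libraries were far below both WT libraries. This is 12.1 ± 1.01 CPM in WT against 1.45 ± 0.480 CPM in the knockout (SD, n = 2), or 12.0% of WT. The log2 fold change was −3.05 (SE 0.217), with an adjusted p of 1.13e-06 by edgeR's quasi-likelihood test. Among 13840 tested genes it ranked at 9 by p-value and at 11 from the lowest by fold change.

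Because Smarca1 is on the same chromosome, genes between it and Usp26 were examined. The end of Smarca1 and the start of Usp26 are 3.86 Mb apart. Of 18 tested genes between them, 4 were called, beside 9.21% of all tested genes. All 4 were lower in the knockout, where 5.21% of all tested genes were called lower. Of these 18, 0 passed the threshold of the study, beside 0.990%. Their log2 fold changes ran from −0.75 to 0.93, the last for Rab33a, which was not called. The 5 tested neighbours on each side of Usp26 ranged from −0.75 to 0.30, and 3 of these 10 were called by edgeR at an adjusted p under 0.05. These were Firre (−0.59), a long noncoding RNA, Stk26 (−0.51), a kinase, and Mbnl3 (−0.75), a splicing regulator. All 3 lie on the side of Smarca1. The calls of Stk26 and Mbnl3 were lost by DESeq2 (adjusted p = 0.209 and 0.340). The 494 tested genes of chromosome X had a median log2 fold change of −0.02, and 38 of them (7.69%) were called.

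Within 5 Mb of Usp26, 7 of 35 other tested genes were called, beside 9.21% of all tested genes. All 7 were lower in the knockout, where 5.21% of all tested genes were called lower. Of the 35, 2 passed the threshold of the study (0.990% of all tested genes), namely Smarca1 and 1700013H16Rik. The last was read 35 and 38 times in WT against 5 and 5 times in the knockout, a log2 fold change of −2.94 (SE 0.374) with an adjusted p of 0.000219 by edgeR. Near it, Ct55, a cancer/testis antigen gene, was read 25 and 30 times in WT against 15 and 7 times in the knockout (−1.41, SE 0.369, adjusted p = 0.0251 by edgeR and 0.253 by DESeq2). Ct55 starts 1.97 Mb and 1700013H16Rik 1.99 Mb beyond the start of Usp26. The pair was picked after its values had been seen.

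**Figure D3:**
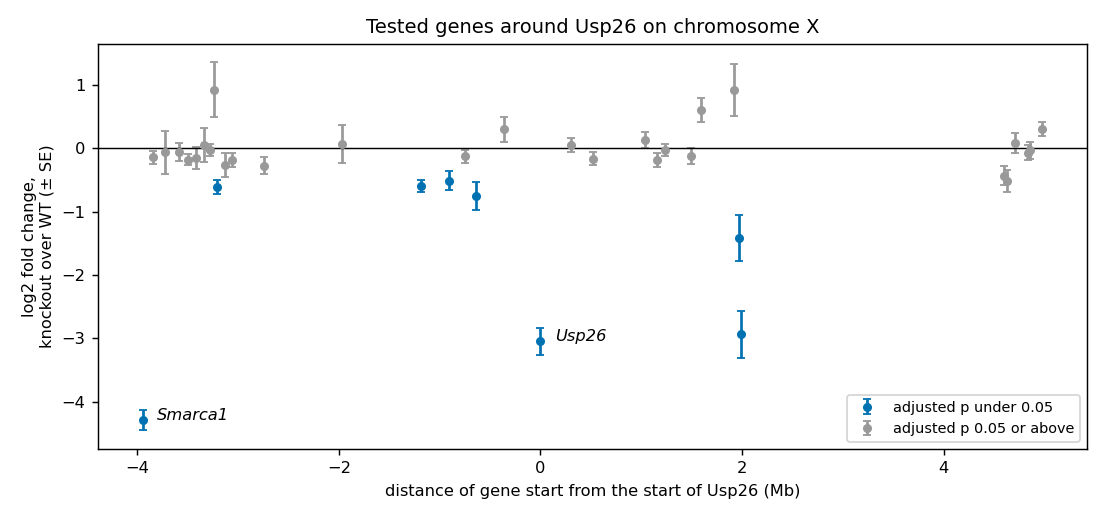
Log2 fold change of knockout over WT with its SE (bars) for tested genes within 5 Mb of Usp26 on chromosome X, placed by the distance of their starts from that of Usp26 in Mb. Blue marks an adjusted p under 0.05, and Usp26 at −3.05 stands below the 10 nearest tested genes, which lie between −0.75 and 0.30.

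Of the genes for transcription factors and commitment to meiosis, 1 of 6 tested was called, beside 9.21% of all tested genes. It was higher. Stra8, the retinoic acid target that starts the meiotic programme (chr6:34920163-34939344), was read 154 and 209 times in WT against 374 and 410 times in the knockout. Every knockout library was above every WT library. Its level was 12.5 ± 1.64 CPM in WT against 25.3 ± 2.01 CPM in the knockout, 2.02-fold, and the log2 fold change was 1.01 (SE 0.134, adjusted p = 0.000269 by edgeR). Without WT replicate 1 the fold change was 0.89 on the log2 scale, which is under the fold required by the study although still called.

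Brdt, the testis-specific bromodomain protein, was read 15 and 20 times in WT against 35 and 36 times in the knockout, without overlap. Its log2 fold change of 0.91 (SE 0.289) had an adjusted p of 0.0639 by edgeR and of 0.0466 when 10 counts were required in every library. Taf7l, a germ cell form of a TFIID subunit on chromosome X, had 45 and 45 counts in WT against 69 and 77 in the knockout (0.59, adjusted p = 0.0901). Meioc, which keeps germ cells in meiotic prophase, had 492 and 490 counts in WT against 461 and 367 in the knockout (−0.35, adjusted p = 0.0967), and was called without knockout replicate 1 (adjusted p = 0.00381 by edgeR). Sohlh2, a regulator of early spermatogonia and oocytes, and Dmrtb1, which controls the step from mitosis to meiosis, had log2 fold changes of 0.21 and −0.13. Of the 6 genes, 5 did not overlap between the genotypes, 4 of them higher in the knockout, beside 50.5% of all tested genes.

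The genes grouped here under translation and RNA binding were Dazl and Ddx4. Neither was called by edgeR or by DESeq2, beside 9.21% and 5.61% of all tested genes. By edgeR 0 of 2 had an unadjusted p under 0.05, beside 3066 of all 13840 tested genes. Dazl, a translation regulator, was read 207 and 200 times in WT against 239 and 227 times in the knockout, with overlapping CPM. Its log2 fold change was 0.09 (SE 0.134), and that of Ddx4 was −0.06 (SE 0.101).

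In the piRNA pathway, which guards the germline genome against transposons, 2 of 10 tested genes were called, in opposite directions. The share called of all tested genes was 9.21%. Mael, which codes for Maelstrom, a factor of transposon silencing (chr1:166201385-166238744), was read 150 and 181 times in WT against 391 and 416 times in the knockout. All knockout values were above all WT values. The level was 11.4 ± 0.559 CPM in WT against 26.0 ± 1.52 CPM in the knockout, 2.28-fold, with a log2 fold change of 1.19 (SE 0.126, adjusted p = 5.43e-05 by edgeR).

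Piwil2 (chr14:70372477-70436898) went the other way. It had 1108 and 1112 counts in WT against 917 and 769 in the knockout, equal to 77.0 ± 6.25 and 54.2 ± 5.94 CPM, with both knockout libraries below WT. The log2 fold change was −0.50 (SE 0.106, adjusted p = 0.0070 by edgeR). The call was lost without WT replicate 1, where the log2 fold change was −0.42 and the adjusted p was 0.0855.

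The Tudor-domain genes, whose products bind PIWI proteins in germ granules, did not pass the test. Tdrd1 had 191 and 176 counts in WT against 151 and 126 in the knockout, a log2 fold change of −0.51 (SE 0.156) with an adjusted p of 0.0538 by edgeR. It was called without WT replicate 2 (adjusted p = 0.0206 by edgeR) and without knockout replicate 1 (0.00875). Tdrkh had 213 and 250 counts in WT against 207 and 174 in the knockout (−0.38, adjusted p = 0.10, and 0.0324 without knockout replicate 1, by edgeR). Over 36.7% of its exonic bases Tdrkh overlaps Oaz3 on the opposite strand, and as the strand setting of the counting is not stated in the sources used here, its reads and those of Oaz3 may not be told apart. Tdrd12 (0.19), Mov10l1 (0.18), an RNA helicase of piRNA production, Stk31 (0.05), a Tudor-domain kinase, Tdrd5 (0.04) and Piwil1 (−0.15) had small log2 fold changes, with adjusted p-values of 0.257 or more by edgeR. Tdrd9 had a log2 fold change of −0.04, and its knockout libraries, at 1.27 and 0.325 CPM, enclosed the WT values of 0.808 and 0.848.

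**Figure D4:**
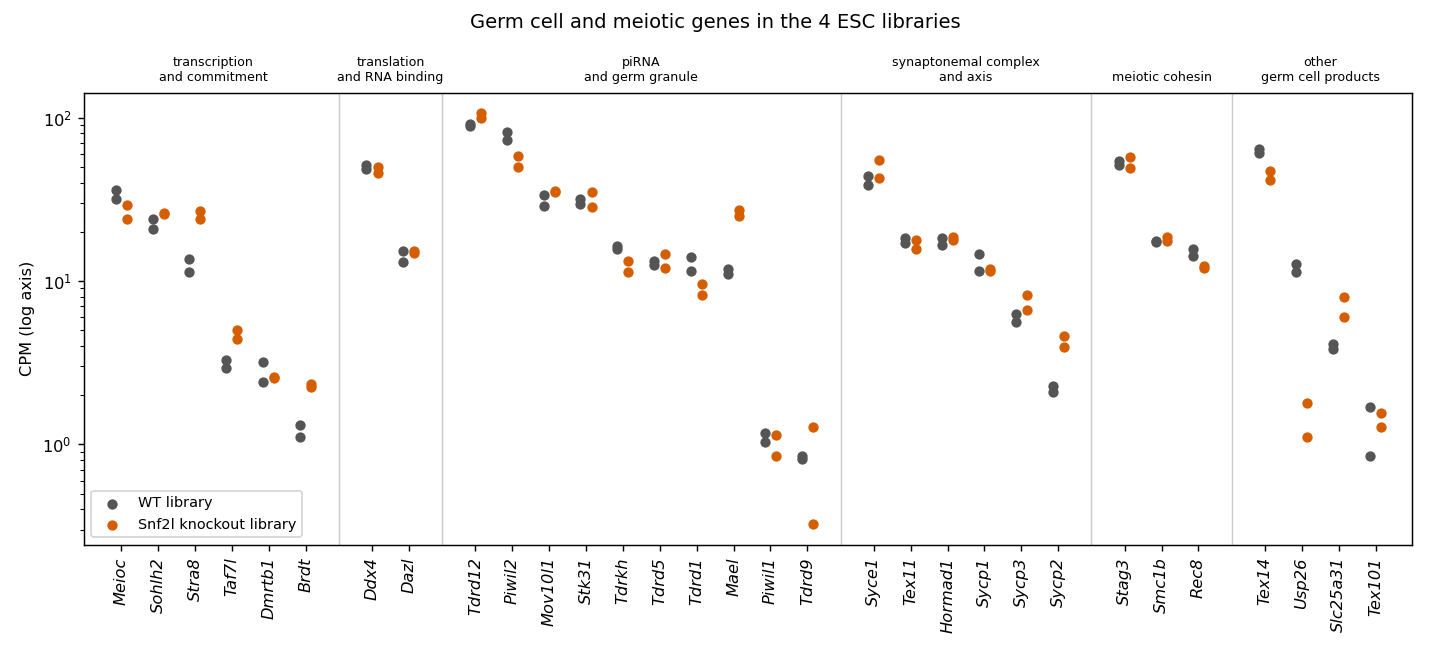
CPM (log axis) of the 31 germ cell and meiotic genes in each of the 2 WT libraries (grey) and the 2 knockout libraries (orange), grouped by role. The knockout points of Usp26 lie far below WT, at 1.78 and 1.11 CPM against 12.8 and 11.4, and those of Mael and Stra8 lie above, whereas grey and orange points mix for genes such as Ddx4, Smc1b and Stag3.

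Of 6 genes for the synaptonemal complex and the meiotic axis, 1 was called, beside 9.21% of all tested genes. Sycp2, a lateral element protein (chr2:178345295-178407776), was read 31 and 32 times in WT against 72 and 61 times in the knockout, or 2.18 ± 0.134 and 4.28 ± 0.438 CPM. The genotypes did not overlap, and the log2 fold change was 0.97 (SE 0.225, adjusted p = 0.0122 by edgeR). At these low counts the call depended on the tool, with an adjusted p of 0.169 by DESeq2, and on WT replicate 2, without which the adjusted p was 0.0649 by edgeR.

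Its partner in the lateral element, Sycp3, had 86 and 86 counts in WT against 105 and 127 in the knockout, a log2 fold change of 0.33 with an adjusted p of 0.292 by edgeR. Chpt1 overlaps 52.2% of the exonic bases of Sycp3 on the opposite strand, with the same limit as for Tdrkh. Syce1 had a log2 fold change of 0.24 and was called without knockout replicate 1 (adjusted p = 0.0118 by edgeR). The transverse filament gene Sycp1 (−0.16), Hormad1 (0.05) and Tex11 (−0.08), an X-linked gene needed for crossovers, had adjusted p-values from 0.581 to 0.860.

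Meiotic cohesin is the ring that holds sister chromatids together. None of its 3 listed genes was called by edgeR at an adjusted p under 0.05, beside 9.21% of all tested genes. Of the 3, 1 had an unadjusted p under 0.05 by edgeR, beside 3066 of all 13840 tested genes. That was Rec8, the meiotic kleisin, with 193 and 241 counts in WT against 193 and 185 in the knockout, both knockout libraries being lower in CPM (−0.30, SE 0.134, adjusted p = 0.203 by edgeR). Smc1b had 240 and 265 counts in WT against 293 and 269 in the knockout, and Stag3 had 735 and 792 in WT against 907 and 760 in the knockout. Their log2 fold changes of 0.05 and 0.02 had SEs of 0.122 and 0.106. DESeq2 also called 0 of the 3.

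Among the other germ cell products, 3 of 4 tested genes were called, beside 9.21% of all tested genes. Beside Usp26 these were Tex14, which was lower, and Slc25a31, which was higher. Tex14 (chr11:87405013-87555823) had 881 and 937 counts in WT against 736 and 635 in the knockout, with both knockout libraries below WT. It had 62.9 ± 2.54 CPM in WT against 44.1 ± 3.95 CPM in the knockout, a log2 fold change of −0.51 (SE 0.103, adjusted p = 0.00509 by edgeR). Slc25a31, the ADP/ATP carrier of the testis known as ANT4 (chr3:40708871-40726094), had 52 and 63 counts in WT against 95 and 122 in the knockout, with no overlap. This is 3.97 ± 0.205 and 7.0 ± 1.33 CPM, a log2 fold change of 0.81 (SE 0.194, adjusted p = 0.0148 by edgeR). Its adjusted p was 0.130 by DESeq2, and 0.0768 by edgeR without knockout replicate 2. Tex101, a germ cell surface protein, had 13 to 24 counts per library and a log2 fold change of 0.18 (SE 0.363).

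A promoter window of 300 bases, 250 before and 50 after the RefSeq start, was matched for 33 of the 36 genes. The ratio of observed to expected CpG had a median of 0.713 in the 33 and of 0.759 in the 10962 tested genes with a window, and it was 0.389 over all 27025 genes with a window. It was above 0.6 in 23 of the 33 (69.7%) and in 71.4% of the windows of tested genes. The lowest ratio was that of Sycp2 (0.363), followed by Usp26 (0.397), Tdrd12 (0.408), Nobox (0.411), Tdrd9 (0.430) and Stra8 (0.430). Of these, Tdrd12 and Tdrd9 were not called and Nobox was below the count rule. The window of Stra8 lies inside the gene as listed. The highest ratio was that of Tdrd5 (1.11). The 6 called genes with a window ranged from 0.363 to 0.826.

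The windows were also searched on both strands for TCCCGC, the core of E2F sites, and for CACGTG, the E-box bound by MAX dimers, which can share no more than an end base. TCCCGC was found in 12 of the 33 (36.4%), beside 36.3% of the windows of tested genes and 20.02% of all windows. CACGTG was found in 14 (42.4%), beside 10.5% and 7.24%, and both motifs in 7 (21.2%), beside 4.06% and 2.05%. The 7 with both were Ddx4, Hormad1, Mael, Slc25a31, Stag3, Sycp1 and Sycp3. Of these, 2, Mael and Slc25a31, were called higher, beside 4.0% of all tested genes. The 4 members called higher were thus split into 2 with both motifs and 2 with neither. In the sequence of Mael printed above, TCCCGC lies 143 to 138 bases and CACGTG 223 to 218 bases before the start. Tex14 holds TCCCGC alone, 111 to 106 bases before the start, and Usp26, Stra8 and Sycp2 hold neither in their windows. The window of Stra8 lies inside the gene as listed, so that the bases before its listed start were not searched. A match is a string of letters and no measure of binding.

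**Figure D5:**
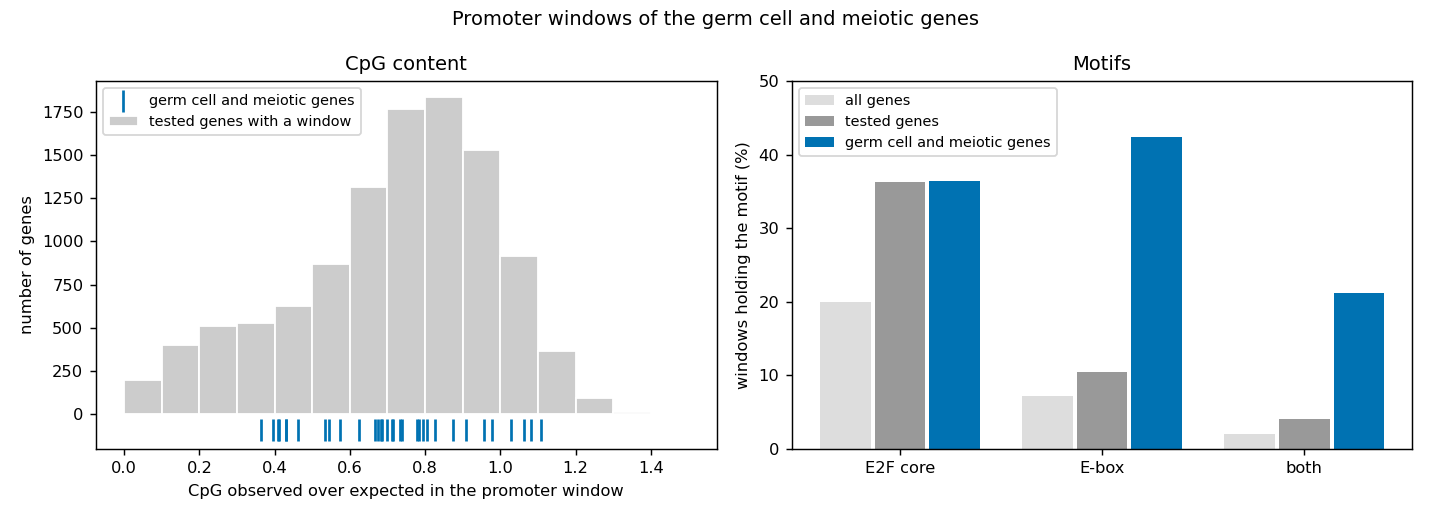
Left, ratio of observed to expected CpG in 300-base promoter windows, with grey bars counting 10962 tested genes and blue ticks for 33 germ cell and meiotic genes. Right, percentage of windows with TCCCGC (E2F core), CACGTG (E-box) or both, where the germ cell and meiotic genes (blue) stand at 36.4%, 42.4% and 21.2%, tested genes (dark grey) at 36.3%, 10.5% and 4.06%, and all genes (light grey) at 20.02%, 7.24% and 2.05%.

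Factors that place the silencing marks, together with the TET enzymes, which remove DNA methylation, were read in the same libraries. Of 30 tested, 2 were called by edgeR at an adjusted p under 0.05 (6.67%, beside 9.21% of all tested genes). Among 9 genes for DNA methylation and its removal, only Dnmt3a, a de novo methyltransferase, was called. It had 4149 and 4719 counts in WT against 7092 and 6825 in the knockout, a log2 fold change of 0.55 (SE 0.0821, adjusted p = 0.000681 by edgeR), without overlap. Among 14 genes of PRC1.6, only Tfdp1, the DNA binding partner of E2F factors, was called. It had 3976 and 4400 counts in WT against 2827 and 2860 in the knockout (−0.66, SE 0.0853, adjusted p = 0.000240 by edgeR). Tfdp1 is on chromosome 8, where the median of all tested genes was −0.51 and 61.0% of them were called. The part of that shift in the change of Tfdp1 was not tested. Both calls held under all 11 alternatives, and 7 of the 30 were called without knockout replicate 1, beside 13.7% of all tested genes in that setting. Of 7 genes for methylation of lysine 9 of histone H3, 0 were called by edgeR or DESeq2. By edgeR 1 of the 7 had an unadjusted p under 0.05, beside 3066 of all 13840 tested genes. Log2 fold changes of the 7 ranged from −0.26 to 0.12.

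Another list of 34 germ cell genes was read in the same way, of which 26 could be tested and 4 were called by edgeR at an adjusted p under 0.05 (15.4%, beside 9.21% of all tested genes). Syce2, of the central element, fell by 0.60 on the log2 scale, from 1212 and 1437 counts in WT to 858 and 1012 in the knockout. It is on chromosome 8, where the median log2 fold change was −0.51, and the part of that in its change was not tested. Hormad2, of the meiotic axis, fell by 0.59 (adjusted p = 0.0261 by edgeR), from 142 and 148 counts to 110 and 97. Tex19.1, which restrains retrotransposons, rose by 0.36 (adjusted p = 0.0264 by edgeR), from 1418 and 1651 counts to 1998 and 2230. The testis tubulin Tuba3a rose by 0.49 (adjusted p = 0.0479 by edgeR), from 120 and 142 counts to 187 and 207. By DESeq2 the adjusted p was 0.216 for Hormad2 and 0.287 for Tuba3a, and without WT replicate 1 it was 0.220 for Tex19.1 by edgeR, whereas the call of Syce2 held under all 11 alternatives. Tex19.1 and Tuba3a have close paralogs, Tex19.2 and Tuba3b, with which reads may have been shared. Without WT replicate 1 the list had 1 call, beside 5.85% of all tested genes. No gene of this list passed the threshold of the study.

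Markers of other cell types were read beside these changes. All 10 ESC markers were tested and summed to between 5264 and 5584 CPM in WT against 5564 and 5814 CPM in the knockout. Klf4 was called higher (0.34, but with an adjusted p of 0.0543 by DESeq2) and Zfp42 was called lower (−0.60). Zfp42 is on chromosome 8, where the median log2 fold change was −0.51. Of 8 spermatid and sperm markers, 7 had 3 counts or fewer in every library, and Prm1, Prm2, Tnp1 and Acr, which define these cells, were at 0 throughout. Their sum was 1.70 to 2.28 CPM in WT against 1.17 to 1.34 CPM in the knockout. Of 6 oocyte markers, 4 had 3 counts or fewer in every library and Oosp1 was at 0, with sums of 4.70 to 5.42 CPM in WT against 3.44 to 5.01 CPM. The 7 markers of primordial germ cells summed to 210 and 217 CPM in WT against 214 and 223 CPM in the knockout. In these, 3 of 7 were called, beside 9.21% of all tested genes, with Prdm1 (−0.73) and Dppa3 (−0.88) lower and Kit (0.42) higher. The call of Kit was lost without WT replicate 2 (adjusted p = 0.246 by edgeR).

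The fibroblast markers, of which Lum was at 0 throughout, summed to 12.7 and 15.4 CPM in WT against 28.5 CPM in each knockout library. All 6 tested had positive log2 fold changes, and 2 of 6, the collagen genes Col1a1 (1.41) and Col3a1 (2.44), were called higher, beside 4.0% of all tested genes. The markers of the 2-cell-like state summed to 17.8 and 18.4 CPM in WT against 7.87 and 8.03 CPM in the knockout. All 6 tested were negative and 4 of them were called lower by edgeR, beside 5.21% of all tested genes, and 2 by DESeq2, although these families hold near-identical copies whose reads are hard to assign. The part of these cell states in the changes of the germ cell and meiotic genes was not tested.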

How the data were processed

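Poly(A) RNA was measured in 2 WT and 2 Snf2l knockout libraries. The authors deposited 1 table of raw read counts per Entrez gene with gene lengths, made by aligning reads to mm10 with HISAT2 through QuasR and counting over UCSC Known Genes. The deposited counts are whole numbers without normalization, and the strand setting of the counting is not given in the sources used here. Of 24594 genes, 24570 were matched by Entrez identifier to symbols and positions of RefSeq on GRCm38.p6, the assembly of mm10.

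Groups were taken from the labels, which divide these libraries by no batch. Counts were filtered with filterByExpr (minimum count 10), scaled with TMM factors, which is an assumption, and tested in R 4.3.3 with edgeR 4.0.16 (glmQLFit and glmQLFTest in their legacy form), with genotype as the only term. P-values were two-sided and adjusted by the Benjamini-Hochberg method over 13840 genes. CPM used TMM-scaled totals, and SD was taken over 2 libraries. SEs were derived from the fold change and the F statistic. The script was tested on simulated data. Precision is limited by depth (13771642 to 15608803 counts per library) and by 2 libraries per genotype. Replicates of a genotype differed by more than sampling noise.

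Genes and lists were chosen with earlier results of these data known. All genes past the count rule were named. Full values were given for those with an adjusted p under 0.05 and for the 6 with the highest CPM per kb. In other lists only called genes were named, with defining markers at 0. Promoter sequences were printed for the 4 members with the smallest p-values, and where RefSeq lists several windows for a gene the first listed was used. Alternatives were other scalings, filters and quasi-likelihood form, DESeq2 1.42.0, a replicate block and each library left out.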

Additional observations from a re-analysis of the deposited data

How the results depend on the processing

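The calls of Usp26, Mael, Stra8 and Tex14 held under all 11 alternatives run on single genes, and those of Piwil2, Sycp2 and Slc25a31 were lost under 5 of their settings, as given with each gene. In each of these the direction was kept, and among uncalled genes 13 settings brought a call. Other scalings, the edgeR 4 form and the filters left the count of called germ cell and meiotic genes between 7 and 8. DESeq2 called 5, of which 2 were higher and 3 lower. With 1 library left out the count ran from 6 to 11, with 3 to 5 higher and 2 to 6 lower, and the largest count was without knockout replicate 1. Over the same settings 5.85% to 13.7% of all tested genes were called. Genes past the threshold of the study numbered 2 to 3, the smaller number without WT replicate 1.

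The replicate numbers could not be shown to pair the libraries, because deviations of same-numbered libraries correlated at 0.196 over 2 pairs. With a replicate block 14 of the 31 were called, 8 higher and 6 lower, when 3471 of all tested genes (25.1%) were called. The block also called 7 of the 30 factors that place or remove silencing marks and 6 of the other germ cell genes.

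Of these 30 factors of DNA methylation, PRC1.6 and lysine 9 methylation, 2 were called. Of the other germ cell genes 26 were tested and 4 called. For the latter DESeq2 gave 2 calls, when 5.61% of all tested genes were called. A filter of at least 1 count also gave 2, when 5.39% of all tested genes were called. Leaving out genes of chromosome 8, chosen after seeing the data, gave 1 for the factors and 3 for the other germ cell genes. These counts were fixed in advance, because the called Tfdp1 and Syce2 lie on that chromosome. The count of reported genes was 30 with 10 counts in every library, and 30 with at least 1 CPM in at least 2 libraries. The median CpG ratio was 0.671 for the 250 bases before the start alone.

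Among uncalled genes the sign changed in 13 settings, each with 1 library left out. The log2 fold changes then ran from −0.32 to 0.023 for Sycp1, −0.021 to 0.20 for Dazl, −0.18 to 0.011 for Tex11, −0.31 to 0.086 for Dmrtb1 and −0.25 to 0.74 for Tex101. They ran from −0.021 to 0.13 for Hormad1, −0.12 to 0.20 for Stk31, −0.38 to 0.054 for Piwil1, −0.10 to 0.18 for Tdrd5, −0.093 to 0.13 for Stag3 and −1.33 to 0.62 for Tdrd9. The causes of these differences were not tested. With 2 libraries per genotype an outlying library could not be identified by a test, and tested members with fewer than 100 counts in a library had SEs of 0.17 or more.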
